A study of Mus with 9 samples.

Results

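The 9 genes described here form the corticosteroid stress axis as it can be read in the hippocampus: the glucocorticoid receptor Nr3c1, the mineralocorticoid receptor Nr3c2, the receptor-responsive genes Fkbp5, Sgk1 and Tsc22d3, the steroid-activating enzyme Hsd11b1, and corticotropin-releasing hormone Crh with its receptors Crhr1 and Crhr2. They were chosen by name, as the probe sets whose gene symbol equals one of the 9, among 21978 different symbol entries of a Clariom S Mouse array. Each gene was matched by 1 probe set. Hippocampal RNA was hybridized to 9 arrays in 3 groups of 3: SAMR1 given vehicle, SAMP8 given vehicle, and SAMP8 given trigonelline (TG), a plant alkaloid, by mouth at 5 mg/kg for 30 days and, by the records, on through the behavioral tests. The records do not say whether each array stands for a separate mouse. SAMP8 is the senescence-accelerated mouse prone strain with early memory decline, and SAMR1 is the related senescence-resistant strain used as the normal aging control, so a difference between them is one of strain and not of a single allele. The SAMP8 mice were 16-week-old males by the methods, which do not state age and sex for SAMR1 separately. All mice were housed singly, and all 3 groups went through 8 days of behavioral testing with the Morris water maze. The housing and the swimming are thus shared by the controls. The treatment and the testing came before the hippocampus was taken, so the mice were older by then, at an age the methods do not state. The vehicle is saline in the sample records and water in the methods, and each record also carries a description of a macrophage cell line under another treatment, which was not used.

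Corticosterone, the main glucocorticoid of the mouse, crosses into brain cells and binds 2 nuclear receptors. The mineralocorticoid receptor has the higher affinity, is abundant in hippocampal neurons and is largely occupied at resting hormone levels, whereas the glucocorticoid receptor is occupied when the hormone rises with stress or the daily peak. Both receptors are held by heat shock protein chaperones, move to the nucleus with hormone and raise a set of target genes, of which Fkbp5 encodes a cochaperone that feeds back to lower receptor sensitivity. Crh, which starts the hormonal stress response from the hypothalamus, is made in the hippocampus mainly by interneurons and acts there on Crhr1. The comparison of SAMP8 with SAMR1 asks how the strains differ, and the comparison of TG-treated with nontreated SAMP8 asks what TG changed.

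The deposited values are the authors' group averages on the log2 signal scale, with no value per array used here, so the spread between mice is unknown and no difference below could be set against it or tested. A difference of averages is given as log2 units, the first-named group minus the second, and is called past the limit when it exceeds 1.5-fold, which is 0.58 in log2 units. Over all 22206 probe sets, 5.00% were past that limit upward and 6.08% downward in SAMP8 vs. SAMR1. For TG-treated SAMP8 vs. SAMP8 these shares were 4.48% upward and 3.74% downward, and for TG-treated SAMP8 vs. SAMR1 they were 5.62% and 4.83%. The median difference of all probe sets was 0.00, 0.01 and -0.01 in these 3 comparisons, and the medians of the group averages lay between 6.04 and 6.09. The SAMP8 averages were identical in both tables, so the strain and the TG comparison share that group, which enters them with opposite signs. Markers of the labelled tissue were present: Neurod6, of pyramidal neurons, stood between 14.85 and 14.88 in the 3 groups, and Prox1, of dentate granule cells, between 11.00 and 11.85. In contrast, none of 10 hypothalamic genes, Avp and Oxt among them, exceeded 5.30 in any group. In such whole-tissue RNA, fewer cells of a type and less RNA per cell cannot be told apart.

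**Figure D1:**
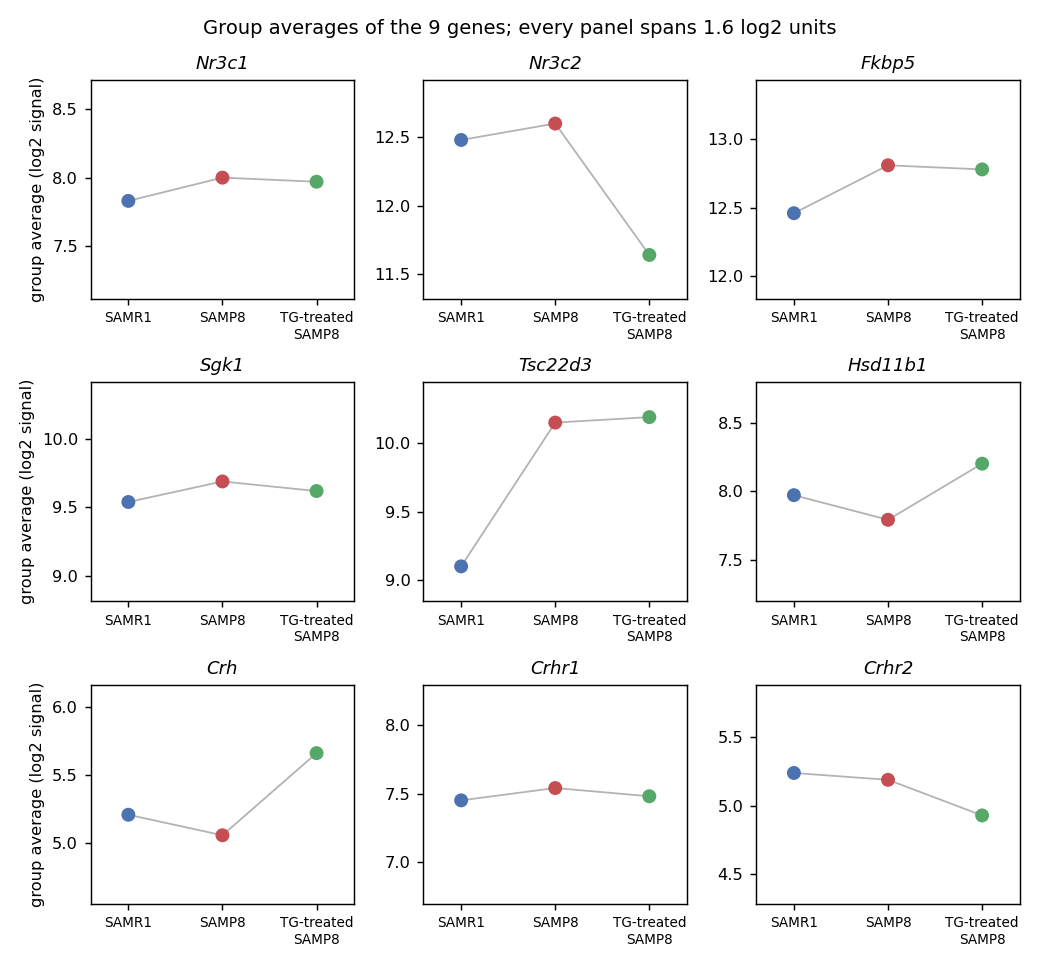
Each panel shows 1 of the 9 genes, with the authors' average (log2 signal, vertical axis) of SAMR1, SAMP8 and TG-treated SAMP8 as points joined by a grey guide line, and every panel spans the same number of log2 units, so heights of steps can be compared between panels. Tsc22d3 steps up between SAMR1 and SAMP8 (9.10 to 10.15), Nr3c2 steps down in the TG-treated group (12.60 to 11.64), and Nr3c1, Sgk1 and Crhr1 are close to level.

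The receptors differed from each other in how they compared between groups. Nr3c1, which encodes the glucocorticoid receptor and lies on chromosome 18, averaged 7.83 in SAMR1, 8.00 in SAMP8 and 7.97 with TG, that is, in TG-treated SAMP8. Its differences of 0.17 between the strains and -0.03 with TG are within those of most probe sets on the array, since 59.1% and 91.9% of all probe sets differed by at least as much in either direction. Nr3c2, the mineralocorticoid receptor on chromosome 8 (GRCm38, chr8:76898083-77245012), averaged 12.48 in SAMR1, 12.60 in SAMP8 and 11.64 with TG. The vehicle groups thus stood close together and the TG-treated group stood lowest. The TG-treated average was 1.95-fold below that of SAMP8, a difference of -0.96, and 1.03% of all probe sets differed by as much in either direction. Among the probe sets of the top signal quartile, to which Nr3c2 belongs, 5.51% were past the limit downward with TG. Against SAMR1 the TG-treated average of Nr3c2 was lower by 1.79-fold. That difference of -0.84 was matched in size, in either direction, by 3.71% of all probe sets. Between the strains, Nr3c2 differed by 0.12.

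The unequal change of the receptors can be given without setting one gene's level against the other's. From SAMP8 to TG-treated SAMP8, the difference of Nr3c2 was 0.93 log2 units more negative than that of Nr3c1, a 1.91-fold shift in their ratio. Between SAMR1 and SAMP8, both receptors differed by nearly the same amount and the shift was 1.04-fold. Pgr, which encodes the progesterone receptor and was named after its values were seen, lay between 8.00 and 8.09 in all groups.

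Of the 3 receptor-responsive genes, 1 was past the limit between the strains. Tsc22d3 (chrX:140539528-140600522) encodes GILZ, a leucine zipper protein through which glucocorticoids restrain inflammatory signalling. It averaged 9.10 in SAMR1, 10.15 in SAMP8 and 10.19 with TG. Both SAMP8 groups were high and SAMR1 alone was low. The SAMP8 average exceeded that of SAMR1 by 2.07-fold, a difference of 1.05, and 1.93% of all probe sets differed by as much in either direction. With TG the difference was 0.04. Among the probe sets of the top signal quartile, to which Tsc22d3 belongs, 7.08% were past the limit upward between the strains.

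Fkbp5, the receptor cochaperone, averaged 12.46 in SAMR1, 12.81 in SAMP8 and 12.78 with TG. It shared with Tsc22d3 the order of a low SAMR1 group and 2 SAMP8 groups close together, but its strain difference of 0.35 was 1.27-fold and within the limit, and 30.0% of all probe sets differed by at least as much. Sgk1 encodes a kinase that regulates ion channels and transporters and is induced by both corticosteroid receptors. Its averages of 9.54, 9.69 and 9.62 in the same order of groups spanned 0.15 log2 units. The paralogs of Tsc22d3, named after their values were seen, did not share its step between the strains in size: Tsc22d1 differed by 0.56, Tsc22d4 by 0.29 and Tsc22d2 by -0.08. Tsc22d4 differed by 0.39 with TG.

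Hsd11b1 regenerates active corticosterone from its inert keto form inside cells. Its average was 7.97 in SAMR1, 7.79 in SAMP8 and 8.20 with TG. The TG-treated group was the highest and SAMP8 the lowest. With TG the difference was 0.41, or 1.33-fold, within the limit, and 20.4% of all probe sets differed by at least as much. The strain difference was -0.18. Hsd11b2, which inactivates the hormone in kidney and is sparse in adult brain, lay between 4.12 and 4.35.

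Crh itself (chr3:19693401-19695396) averaged 5.21 in SAMR1, 5.06 in SAMP8 and 5.66 with TG. The TG-treated group was the highest. Its difference of 0.60 from SAMP8, 1.52-fold, was only just past the limit of 0.58, and 7.71% of all probe sets differed by as much in either direction. The averages of Crh lie below the median of all probe sets, in the signal quartile next to the lowest, where 5.78% of probe sets were past the limit upward with TG. No detection call was used here, so the lower bound of measurable signal for Crh is not known. Compared with SAMR1, the TG-treated average was higher by 0.45, which is within the limit.

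The receptors of Crh were within the limit in all 3 comparisons. Crhr1, the receptor through which Crh acts on pyramidal neurons, averaged 7.45, 7.54 and 7.48 in SAMR1, SAMP8 and TG-treated SAMP8, a range of 0.09 log2 units and the narrowest of the 9 genes. Crhr2, which binds the urocortins with higher affinity than Crh, averaged 5.24, 5.19 and 4.93. Its difference with TG was -0.26, within the limit, and 39.7% of all probe sets differed by at least as much.

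**Figure D2:**
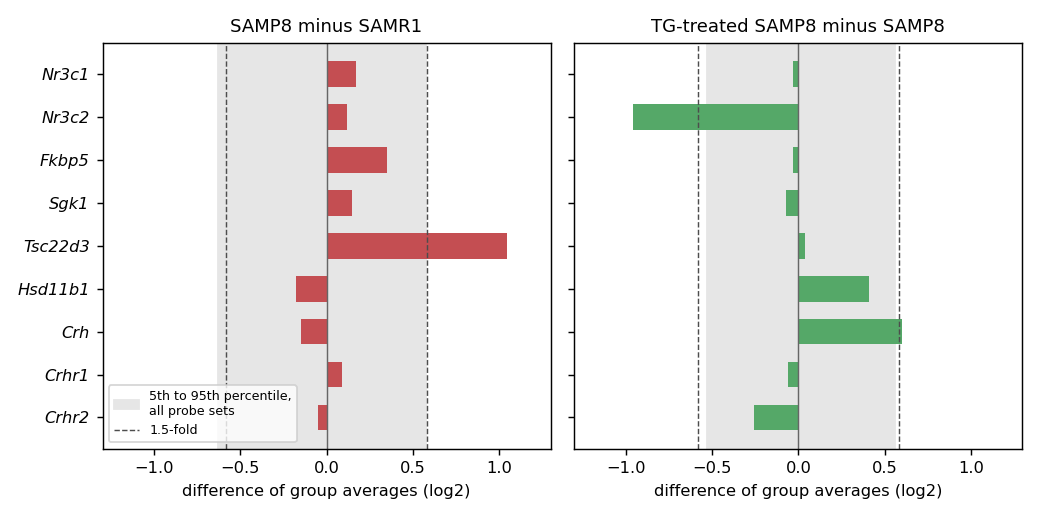
Bars give the difference of the authors' group averages (log2, horizontal axis) for each of the 9 genes, in SAMP8 minus SAMR1 on the left and TG-treated SAMP8 minus SAMP8 on the right; the grey band holds the middle range of all probe sets (-0.63 to 0.58 on the left and -0.53 to 0.56 on the right, with 5% beyond each end) and the dashed lines mark 1.5-fold. On the left Tsc22d3 (1.05) is the single bar outside the dashed lines, and on the right Nr3c2 (-0.96) lies well outside and Crh (0.60) at the line.

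Counted together, 1 of the 9 genes was past the limit upward and 0 downward in SAMP8 vs. SAMR1, against the shares of 5.00% and 6.08% over all probe sets. Their median difference was 0.12, beside 0.00 over all probe sets, and 6 of the 9 differences were positive. With TG, 1 gene (Crh) was past the limit upward and 1 (Nr3c2) downward, where the shares over all probe sets were 4.48% and 3.74%, and the median was -0.03. In TG-treated SAMP8 vs. SAMR1, Tsc22d3 was past the limit upward (1.09) and Nr3c2 downward (-0.84), and the median of the 9 was 0.14. With 9 genes, single calls of this kind are close to the background shares, and nothing about the group as a whole was read from them.

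The wider set of genes known to be induced by glucocorticoids was examined in a list of 34, of which Fkbp5, Sgk1 and Tsc22d3 are among the 9. Of the other 31, 30 were matched, as Glul shares its probe set's symbol entry with a microRNA. In SAMP8 vs. SAMR1, 9 of the 30 were past the limit upward and 1 downward, the median difference was 0.32, and 23 of the 30 were higher in SAMP8. The share past the limit upward over all probe sets ran from 1.22% in the lowest signal quartile to 8.23% in the one next to the highest. The largest differences were those of Xdh, xanthine dehydrogenase, with averages of 4.48 in SAMR1 and 6.15 in SAMP8, and of the ceramidase gene Acer2, with 4.53 and 5.98. Slc2a1, the glucose transporter of the blood-brain barrier, averaged 12.34 in SAMR1 and 13.45 in SAMP8, and Gpd1, glycerol-3-phosphate dehydrogenase, 10.19 and 11.18. Angptl4 was the gene past the limit downward, with 5.77 in SAMR1 and 4.99 in SAMP8.

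Several classical targets were within the limit between the strains. Per1, a clock gene with a well-known glucocorticoid response, differed by 0.26 between the strains, Zbtb16 by 0.20, Sult1a1 by -0.01 and Klf15 by -0.20. In contrast, Dusp1, a phosphatase of MAP kinases, was past the limit upward between the strains, with a difference of 0.80. It averaged 8.86 in SAMR1, 9.66 in SAMP8 and 9.78 with TG, the same order as Tsc22d3.

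With TG, 1 of the 30 other induced genes was past the limit upward and 4 downward, and the median difference was -0.07. Over all probe sets, 4.48% were past the limit upward with TG and 3.74% downward, and in the top signal quartile 3.87% and 5.51%. The 4 downward were Errfi1 (10.63 in SAMP8 and 9.52 with TG), Slc2a1 (13.45 and 12.49), Gpd1 (11.18 and 10.38) and Hif3a (5.78 and 5.15), the last named after its values were seen. The gene upward was Mt1, a metallothionein, with 12.73 in SAMP8 and 13.37 with TG. Since a high SAMP8 average alone makes the strain difference positive and the TG difference negative, the TG-treated averages are also given against SAMR1. There, 5 of the 30 were past the limit upward and 0 downward, with a median of 0.21. The shares over all probe sets in that comparison were 5.62% and 4.83%. Xdh, at 5.69 with TG, was 2.31-fold above its SAMR1 average, whereas Errfi1, Slc2a1 and Gpd1 were within the limit of theirs.

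**Figure D3:**
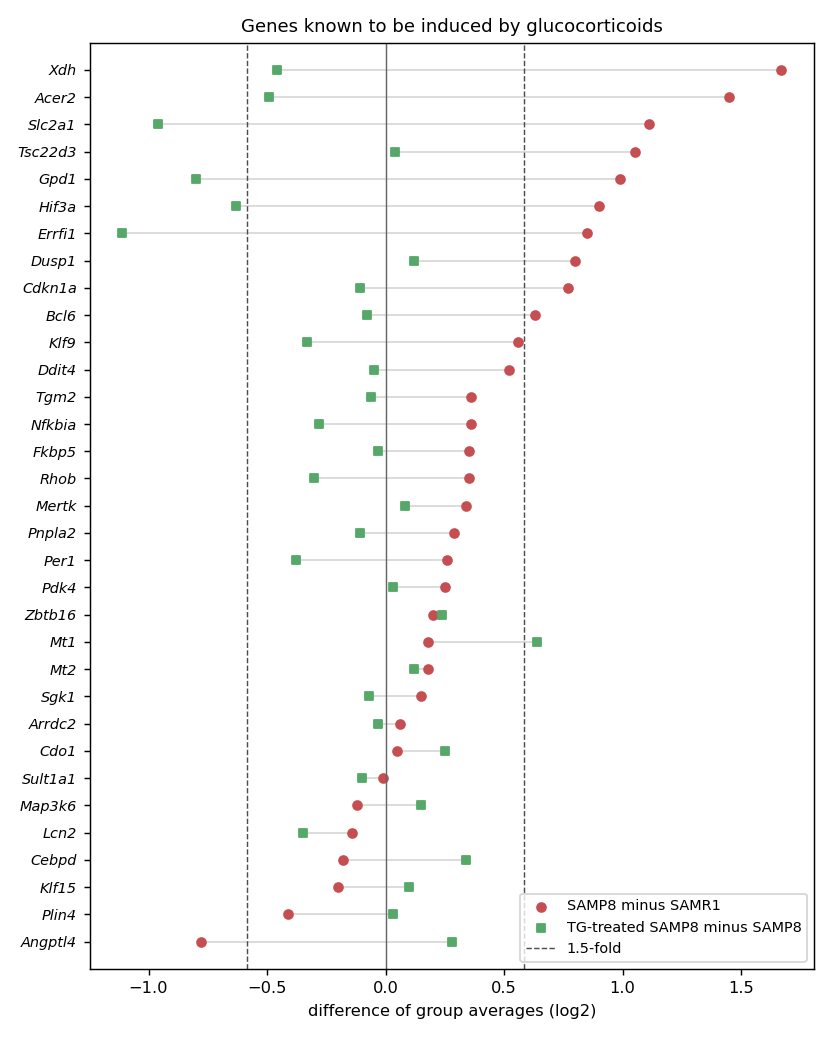
For each of 33 genes induced by glucocorticoids (vertical axis), the circle gives the difference of the authors' averages in SAMP8 minus SAMR1 and the square that in TG-treated SAMP8 minus SAMP8 (log2, horizontal axis); the dashed lines mark 1.5-fold. Circles of 10 genes, Tsc22d3 included, lie beyond the right line and 1 beyond the left, and because both differences contain the same SAMP8 average with opposite sign, a wide gap between circle and square can arise from that average alone.

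The proteins that hold the receptors in a hormone-binding state were matched for 12 genes besides Fkbp5. All of these but Hspa1a lie in the top signal quartile. In that quartile, 7.08% of all probe sets were past the limit upward between the strains and 2.11% downward. With TG these shares were 3.87% and 5.51%, and in TG-treated SAMP8 vs. SAMR1 9.53% and 4.07%. Between the strains, 2 of the 12 genes were past the limit upward, Hsp90ab1 (14.21 in SAMR1 and 14.89 in SAMP8) and the DnaJ cochaperone Dnajb1 (8.51 and 9.28), and 0 downward. With TG, Dnajb1 alone was past the limit, at 9.92. Both genes were highest in TG-treated SAMP8, 2.13-fold above SAMR1 for Hsp90ab1 and 2.66-fold for Dnajb1, and Hspa1a, an inducible Hsp70, was also past the limit there with 7.37 in SAMR1 and 8.01 with TG. Fkbp4, the cochaperone that competes with Fkbp5 and favors receptor movement to the nucleus, differed by 0.34 between the strains and by 0.15 with TG. Hspa8 stood at the top of the scale, 19.93, in all groups, so that no difference could show.

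Among 12 coregulators that receptors recruit to DNA, 3 were past the limit upward in SAMP8 vs. SAMR1 and 0 downward, with a median of 0.32. All but Ncoa3 lie in the top signal quartile, where 7.08% of all probe sets were past the limit upward between the strains and 2.11% downward. Nrip1, a corepressor of nuclear receptors, averaged 8.06 in SAMR1, 11.04 in SAMP8 and 10.81 with TG, which put SAMP8 7.89-fold above SAMR1. Ncoa2 and Ncoa3, steroid receptor coactivators, were just past the limit with differences of 0.59 and 0.62. With TG, Ncoa6 alone was past the limit, downward (11.75 in SAMP8 and 10.73 with TG), 10 of the 12 differences were negative and the median was -0.23. The shares of the top signal quartile with TG were 3.87% upward and 5.51% downward. Both comparisons contain the same SAMP8 averages with opposite signs. In TG-treated SAMP8 vs. SAMR1, 1 of the 12 was past the limit upward and 1 downward, with a median of 0.22. In that comparison the quartile's shares were 9.53% and 4.07%.

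For corticosteroid metabolism and transport, 13 genes were measured besides Hsd11b1. The genes of steroid synthesis Cyp11a1, Cyp11b1, Cyp11b2, Cyp21a1, Hsd3b1 and Star had averages of no more than 4.81 in any group. Abcb1a encodes P-glycoprotein, the efflux pump of brain capillaries, which limits the entry of some glucocorticoids. It averaged 6.50 in SAMR1, 10.82 in SAMP8 and 9.90 with TG, and its neighbor Abcb1b 5.17, 7.12 and 6.79. Both were high in the SAMP8 groups and low in SAMR1, and with Srd5a1, a steroid reductase with a strain difference of 0.74, they were the 3 genes past the limit upward between the strains. None of the 13 was past it downward, and the shares over all probe sets were 5.00% upward and 6.08% downward. Transcripts of the related genes Abcb1a and Abcb1b may share probe signal, which was not tested. With TG, Abcb1a differed by -0.92 and Srd5a2 by 0.67.

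In the family of CRH and the peptides of the hypothalamic-pituitary-adrenal axis, 13 genes were measured besides the 3 described. Between the strains 0 were past the limit in either direction, 11 of the 13 were lower in SAMP8, and the median was -0.20. All but Crhbp and Oxtr lie in the 2 lowest signal quartiles, where 5.30% and 10.2% of all probe sets were past the limit downward between the strains and 1.22% and 3.46% upward. The hypothalamic markers, of which Avp, Oxt and Pomc are in both lists, were lower in SAMP8 for 9 of 10, with a median of -0.27. With TG, 8 of these 10 were higher, with a median of 0.08. Of the 13 CRH family genes, 2 were past the limit upward with TG and 0 downward: Ucn, urocortin, with 5.32 in SAMP8 and 6.32 with TG, and Adcyap1, the PACAP peptide, with 4.63 and 5.25. In their signal quartile, next to the lowest, 5.78% of all probe sets were past the limit upward with TG and 2.67% downward. Like Crh, both had their lowest average in SAMP8 and their highest with TG. Against SAMR1, each differed by 0.49 with TG, and 0 of the 13 were past the limit in either direction. Crhbp, which binds and sequesters Crh, averaged 7.39, 7.85 and 7.94 in SAMR1, SAMP8 and TG-treated SAMP8.

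**Figure D4:**
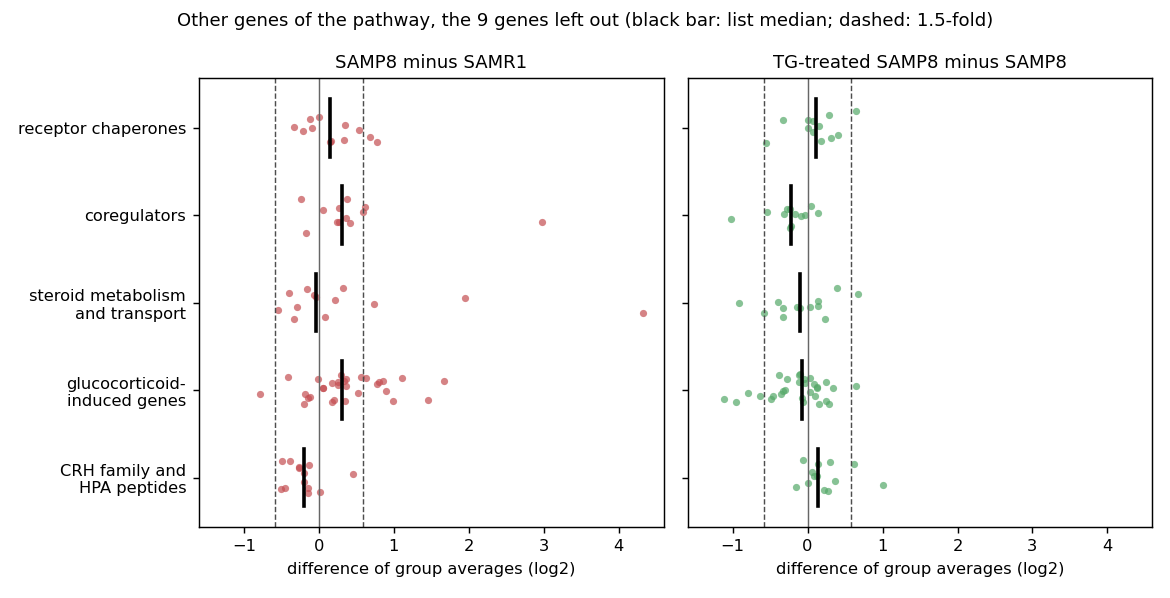
Each dot is 1 gene of the 5 pathway lists with the 9 genes left out (dots are spread vertically within a list for view), placed by its difference of the authors' averages (log2, horizontal axis) in SAMP8 minus SAMR1 on the left and TG-treated SAMP8 minus SAMP8 on the right; black bars are list medians and dashed lines mark 1.5-fold. On the left the medians of coregulators and of glucocorticoid-induced genes both lie at 0.32, with Abcb1a (4.32) and Nrip1 (2.98) far to the right, and on the right all 5 medians lie between -0.23 and 0.14.

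Genes near Tsc22d3 and Nr3c2 on the chromosome were examined too. The shares past the limit over all probe sets were 5.00% upward and 6.08% downward between the strains, and 4.48% and 3.74% with TG. Within 2 Mb of Tsc22d3, 27 other genes were measured, and their median difference between the strains was 0.01, with 1 past the limit upward (Psmd10, 0.86) and 1 downward (Ripply1, -0.67). Within the same distance of Nr3c2 there were 15, with a median of -0.02 with TG, 0 past the limit upward and 2 downward (Rasd2, -0.64, and Zfp827, -0.60). Both of the latter were past the limit upward between the strains (0.74 and 0.73). These 4 neighbors were named after their values were seen.

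**Figure D5:**
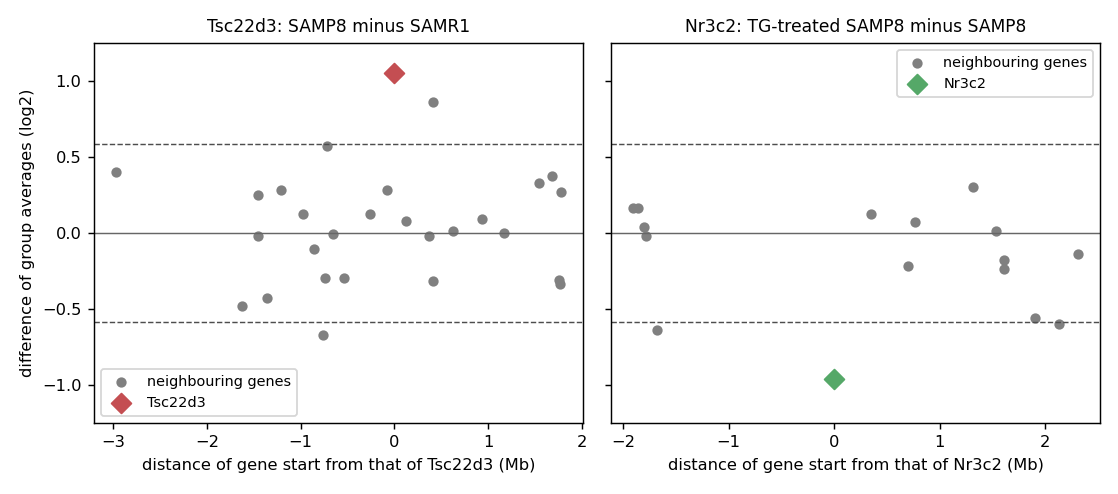
Grey points are the genes within 2 Mb of Tsc22d3 (left, SAMP8 minus SAMR1) and Nr3c2 (right, TG-treated SAMP8 minus SAMP8), placed by the distance between gene starts (Mb, horizontal axis) and their difference of the authors' averages (log2, vertical axis), with the gene itself as a diamond and 1.5-fold as dashed lines. Tsc22d3 (1.05) lies above its 27 neighbors and Nr3c2 (-0.96) below its 15, and the neighbors scatter on both sides of 0.

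The genes whose 3 averages were closest in shape to those of Tsc22d3, by Euclidean distance after subtracting each gene's mean, were Ptprf (7.27, 8.35 and 8.36 in SAMR1, SAMP8 and TG-treated SAMP8), Mettl16 and Creld2. For Nr3c2 they were Tgfbr3 (8.17, 8.28 and 7.31), Slc7a8 and Phf20l1. With 3 averages per gene, such likeness is not particular to the genes named: 76 of 21366 probe sets lay within 0.2 log2 units of Tsc22d3 and 110 of Nr3c2.

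Marker genes of cell types moved beside some of these differences. Over all probe sets, 4.48% were past the limit upward with TG and 3.74% downward. With TG, where Nr3c2 was lower, 2 of 12 markers of hippocampal principal neurons were past the limit downward (Prox1, -0.85, and Man1a, -0.74) and 0 upward, and the mean of the list was 9.14 in SAMR1, 9.49 in SAMP8 and 9.29 with TG. Neurod6 differed by 0.03 there. Meningeal markers showed 5 of 12 past the limit downward with TG, led by Ptgds, Igf2 and Ogn (-2.69, -1.89 and -1.10), with list means of 6.66, 6.82 and 6.29. However, 5 of the 12 were higher with TG, and the median difference of the list was -0.16. Of 8 thalamic markers, 2 were past the limit downward with TG (Zic1, -1.91, and Prkcd, -1.50) and 0 upward, with list means of 8.23, 8.59 and 8.14. Their median difference was -0.09, and 3 of the 8 were higher with TG. Of 10 endothelial markers, 8 were lower with TG and Slco1a4 was past the limit, with 11.62 in SAMP8 and 10.62 with TG. Where Crh was higher, 3 of 10 interneuron markers were past the limit upward, Sst (0.69), Pvalb (0.83) and Vip (0.74), and the list means were 8.90, 9.02 and 9.25, while Gad1 and Gad2, which mark these cells in general, differed by -0.35 and -0.43. Oligodendrocyte markers, of interest because these cells express Sgk1, had 3 of 10 past the limit upward with TG and a median of 0.43, beside -0.07 for Sgk1.

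Between the strains, where Tsc22d3 and other induced genes were higher in SAMP8, 3 of 10 astrocyte markers were past the limit upward (Gfap, 0.95, Gjb6, 0.87, and Slc1a3, 0.62) with a list median of 0.15. Over all probe sets, 5.00% were past the limit upward in this comparison and 6.08% downward. The shares varied with signal: 8.23% and 6.68% in the quartile next to the highest, and 7.08% and 2.11% in the top quartile. Principal neuron markers were higher in SAMP8 for 10 of 12, with 2 past the limit upward (Spink8, with 5.20 in SAMR1 and 6.50 in SAMP8, and Prox1, with 11.26 and 11.85), 0 downward and a median of 0.30. Vip (1.46) was the interneuron marker past the limit, and Mobp (-0.80) the oligodendrocyte marker. Of 10 endothelial markers, 1 was past it upward (Flt1, 0.66) with a median of 0.25, and of 10 microglial markers 3 were upward and 2 downward. Of 12 meningeal markers, 3 were upward and 2 downward. Choroid plexus markers had 2 of 10 past the limit upward and a median of 0.03, and thalamic markers 2 of 8 and a median of 0.32. The part of any of these cell types in the differences of the 9 genes was not tested.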

How the data were processed

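Hippocampal RNA was hybridized to 9 Clariom S Mouse arrays, 3 per group, and the arrays were grouped by the titles of the sample records. The authors normalized the arrays by SST-RMA in the Transcriptome Analysis Console and deposited 2 tables, each with the average log2 signal of 2 groups per probe set, annotated on mm10. The deposited tables also hold the authors' fold changes, p-values and adjusted p-values, which were not used. No value per array was used, so no SD, test across arrays or paired analysis was made, and precision is limited by how many arrays stand behind an average. Averages carry 2 decimals.

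Differences of averages were computed in Python 3.11.15 with numpy 2.4.6 and pandas 2.3.3 and drawn with matplotlib 3.10.9. A gene was matched where the whole symbol entry equals it, and its probe set with the highest mean of the 3 averages was used. A difference past 1.5-fold was counted, beside the same count over all 22206 probe sets. The counting was tested on simulated data. TG-treated SAMP8 vs. SAMR1 takes its averages from both tables. Gene positions are from RefSeq on GRCm38. The members and lists were chosen with earlier results of these data known. Named are the 9 genes, in each list up to 4 genes per comparison with the largest differences past the limit, up to 3 markers per list, the 3 nearest patterns of the 2 genes with the widest range, and others as said. Alternatives were other fold limits, a filter on low signal, centring, and the choice of probe sets.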

Additional observations from a re-analysis of the deposited data

How the results depend on the processing

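No paired analysis was possible because the deposited columns used are group averages and carry no replicate numbers, and for the same reason no array could be left out. All 63 recomputed differences of single members moved by at most 0.02 with centring on the median of all probe sets, with the mean over a gene's probe sets or, for TG-treated SAMP8 vs. SAMR1, with the sum of the within-table differences. These alternatives could hardly change a value. Each gene has 1 probe set, the SAMP8 averages were identical in both tables, and the medians subtracted were 0.00, 0.01 and -0.01. None of the 9 genes lies in the lowest signal quartile, so leaving out the dimmest 25% of probe sets could not change their counts. The counts of the 9 genes past the limit were the same with centring, with the dimmest 25% of probe sets left out, and with probe sets of several symbols included. They depended on the fold limit: at 1.2-fold they were 2 in SAMP8 vs. SAMR1 and 5 in TG-treated SAMP8 vs. SAMR1, and at 2-fold they were 0 with TG, where Nr3c2 and Crh no longer counted, and 1 in TG-treated SAMP8 vs. SAMR1. Over all probe sets, 40.8%, 38.2% and 40.5% were past 1.2-fold in SAMP8 vs. SAMR1, with TG and in TG-treated SAMP8 vs. SAMR1, and 2.22%, 0.761% and 1.81% past 2-fold. For the lists, in alternatives chosen after seeing the data and in that order of comparisons, the counts in either direction at 1.2-fold were 6, 6 and 6 chaperones, 8, 4 and 7 coregulators, 8, 7 and 6 genes of steroid metabolism and transport, 18, 14 and 17 induced genes, and 7, 5 and 5 of the CRH family. At 2-fold, in the same order, there were 0, 0 and 2 chaperones, 1, 1 and 1 coregulators, and 2, 0 and 2 genes of steroid metabolism and transport. Induced genes numbered 3, 1 and 1, and CRH family genes 0, 0 and 0. With probe sets of several symbols included, 2 chaperones were past the limit with TG and 4 in TG-treated SAMP8 vs. SAMR1. With centring, 3 genes of steroid metabolism and transport were past it with TG. The other list counts were unchanged by these settings and by the filter on low signal.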
